A study of Danio rerio with 4 samples.

Results

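The genes described here are non-ETS, non-GATA regulators of the progenitors that give rise to blood and vessels. The list held 6 symbols (tal1, lmo2, lyl1, hhex, runx1 and myb), matched by name to the gene column of an expression table of 31716 rows. Of these, 4 were matched to 1 row each (tal1, lmo2, runx1 and myb), and lyl1 and hhex were not analysed here. The RNA came from zebrafish embryos of the Tg(fli1a:egfp) line at 24 hours post fertilization, in which regulatory sequence of fli1a drives enhanced green fluorescent protein (GFP). Every embryo carried the transgene, so the groups differed in fluorescence and not in genotype or treatment. Dissociated, fixed embryos were sorted into a GFP-positive fraction, labelled endothelial, and a GFP-negative fraction, labelled non-endothelial, with 2 RNA-seq libraries each. The deposited table gives 1 FPKM value (mapped fragments, corrected for the size of the library and the length of the transcript) per gene and fraction, so no level below has a standard deviation. Where values are given as one against another, the GFP-positive value comes first. Separate clutches are not mentioned in the labels, so the p-values measure only the spread between these libraries, which may be technical.

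TAL1 (also called SCL) is a basic helix-loop-helix transcription factor that pairs with E proteins on DNA. LMO2 does not bind DNA itself but joins TAL1 to GATA factors and LDB1 in one complex, which is needed to form blood and is active in early vessel progenitors. RUNX1 binds DNA with its partner CBFB and is required for endothelial cells of the aorta to turn into blood stem cells, and MYB is required for definitive blood stem and progenitor cells. LYL1 is a close relative of TAL1, and HHEX is a homeobox repressor used in blood, vessel and liver progenitors.

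The pair of regulators at the core of the TAL1 complex stood far above their GFP-negative level in GFP-positive cells. The bridging cofactor gene lmo2 (ENSDARG00000095019, chr18:36726165-36735933 in the Zv9 build) stood at 97.7 FPKM with GFP and at 2.27 FPKM without it. The difference was 43.0-fold, with a q-value from Cuffdiff of 0.000958 in the authors' deposited table. For tal1 (ENSDARG00000019930, chr22:16757546-16767302), the levels were 93.7 FPKM and 5.22 FPKM. This was an 18.0-fold difference, and the authors' deposited table again gives q as 0.000958. Both genes lay alone in their Cuffdiff locus and shared the smallest p that the table holds, 5e-05. In all, 381 tested genes had this p from Cuffdiff, and all 381 were called, so it does not rank lmo2 and tal1 among them. Of the 4 rows matched by name, these 2 were tested and both were called higher at a q under 0.05, where 7.18% of the 7299 tested genes were called higher, 7.15% lower and 14.3% in either direction. The other two rows had no test. On the scale of log2((FPKM + 1) ratio), GFP-positive over GFP-negative, the tested rows had 4.92 (lmo2) and 3.93 (tal1), and the median of all tested genes was 0.05. Over all 4 rows, the untested ones included, the median was 2.46, beside 0 over all 31716 rows. Only 18518 of the 31716 rows were above 0 in GFP-positive cells. The 4 rows include the row named myb, which by its gene ID is another gene (below), and leave out cmyb. Their median was 3.80 with a pseudocount of 0.1 and 4.79 with 0.01, since runx1 is listed at 0 in GFP-negative cells.

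In GFP-positive cells lmo2 and tal1 were nearly level on the length-scaled FPKM, and each exceeded 97% of all rows (811 rows were larger than lmo2 and 848 larger than tal1). With 1 value per fraction, their order was not tested. In GFP-negative cells tal1 had the larger value of the pair. By log2((FPKM + 1) ratio), 75 tested genes exceeded lmo2 and 163 exceeded tal1.

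**Figure D1:**
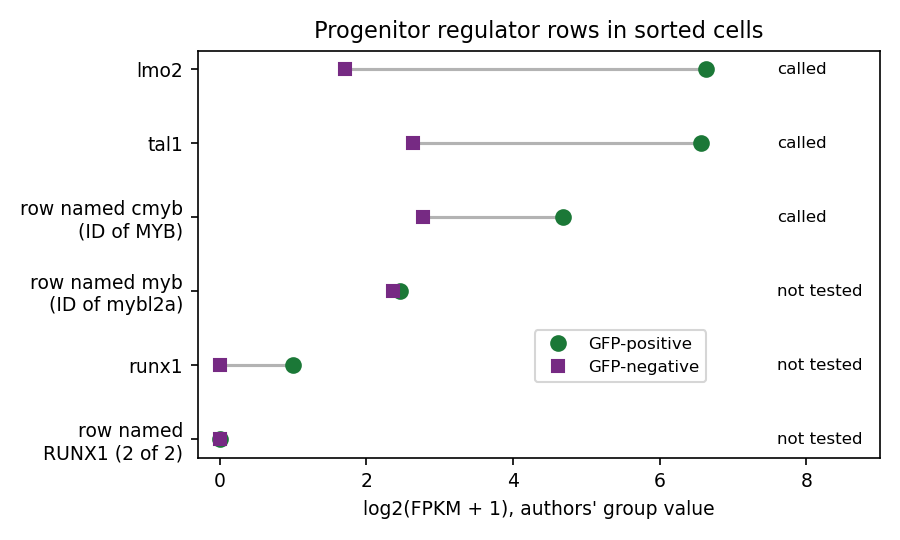
Levels of the regulator rows as log2(FPKM + 1), with circles for GFP-positive cells, squares for GFP-negative cells and 1 authors' group value per point. The rows lmo2, tal1 and cmyb were called higher in GFP-positive cells, and the rows named myb, runx1 and RUNX1 (2 of 2) had no test.

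By its gene ID, the row named myb was not the blood stem cell regulator. The row named myb (ENSDARG00000095241, chr23:4399339-4424104) has a gene ID that a reference of gene names pairs with mybl2a, a MYB relative of the kind known from dividing cells. Another row, named cmyb (ENSDARG00000053666, chr23:32054001-32068622), has the ID that this reference pairs with MYB, and RefSeq (assembly GRCz12tu) gives cmyb as a synonym of myb. The cmyb row was therefore added, after its values had been seen.

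The cmyb row stood at 24.6 against 5.85 FPKM. It was called higher, 4.20-fold, and the authors' deposited table gives a q of 0.00177. Its log2((FPKM + 1) ratio) was 1.90, below those of lmo2 and tal1. Differences between genes in their ratios were not tested. The row named myb had 4.51 FPKM against 4.12 FPKM, a ratio of 1.09 in the authors' deposited table, and was not tested. It shares its Cuffdiff locus with zgc:112175, at 1.79 against 2.1 FPKM, so fragments in the overlap may be assigned to either gene. A list of 8 dividing-cell genes (9 rows) summed to 1319 against 1257 FPKM, with pcna the largest row (536 against 617 FPKM). Of the 9 rows 6 were larger with GFP. These include a second row named mcm5 (0.891 against 0.539 FPKM, no test), mentioned after its values were seen. The reference of gene names pairs its ID with hsp70.1, so it may not be a dividing-cell gene. Of 8 tested, 1 was called higher, cdk1 (named after its values were seen), and 0 lower. This is near the share of all tested genes (7.18% higher, 14.3% in either direction). Matched by gene ID instead of name, the regulators with a test were tal1, lmo2 and cmyb. Of these, 3 of 3 were called higher, beside 7.18% of all tested genes, with cmyb added after its call was seen. Rows with a higher value of 2 to 5 or 5 to 10 FPKM, as these genes had without GFP, were tested in 0.03% and 23.8%. The tests thus rested on their GFP-positive levels.

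Values of runx1 were low in both fractions. The runx1 row (ENSDARG00000025921, chr1:1063376-1081520) had 1.0 FPKM with GFP and was listed at 0 without it. Cuffdiff gave it no test for too few alignments, and no fold is given against a listed 0. A separate row, RUNX1 (2 of 2) (ENSDARG00000087646), begins 7.22 kb beyond the end of the runx1 locus and was listed at 0 in both fractions. The reference of gene names pairs that second ID with RUNX1 and holds no name for the first. Since both rows carry the name of runx1 and adjoin on the chromosome, neither need hold a whole runx1 transcript.

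Whether a regulator could be called depended on its level. Of 4276 rows whose higher fraction lay above 0.5 and up to 2 FPKM, as for runx1, 0 were tested. From 2 to 5 FPKM, the range of the row named myb, 1 of 3566 rows was tested. Between 10 and 20 FPKM the share tested was 96.3%, and between 20 and 50 FPKM, the range of cmyb, 99.2%. The missing calls for runx1 and the row named myb therefore say nothing of a difference or of its absence.

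**Figure D2:**
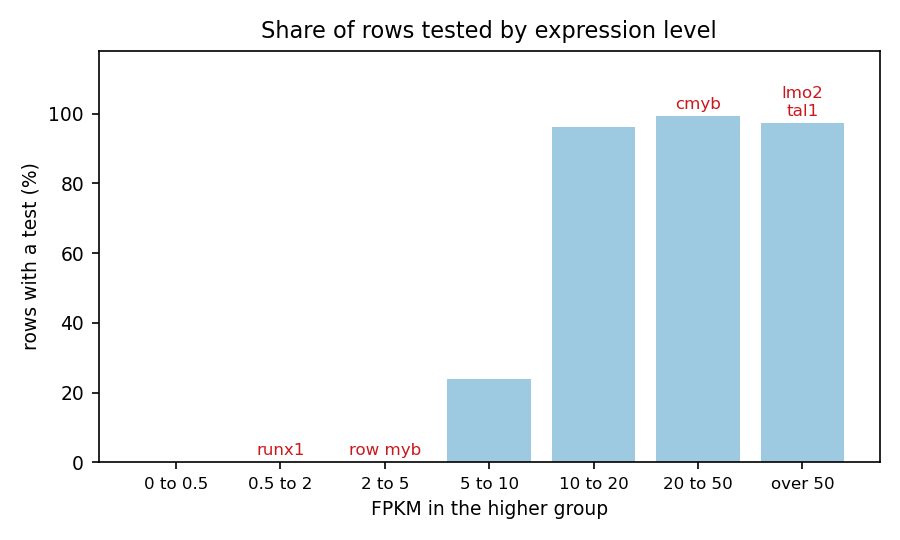
Share of table rows that had a Cuffdiff test, by FPKM in the higher fraction, with the regulator rows named above their bin. The 0.5 to 2 FPKM bin that holds runx1 had 0 tested rows, and the bins of cmyb, tal1 and lmo2 had over 97% of rows tested.

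**Figure D3:**
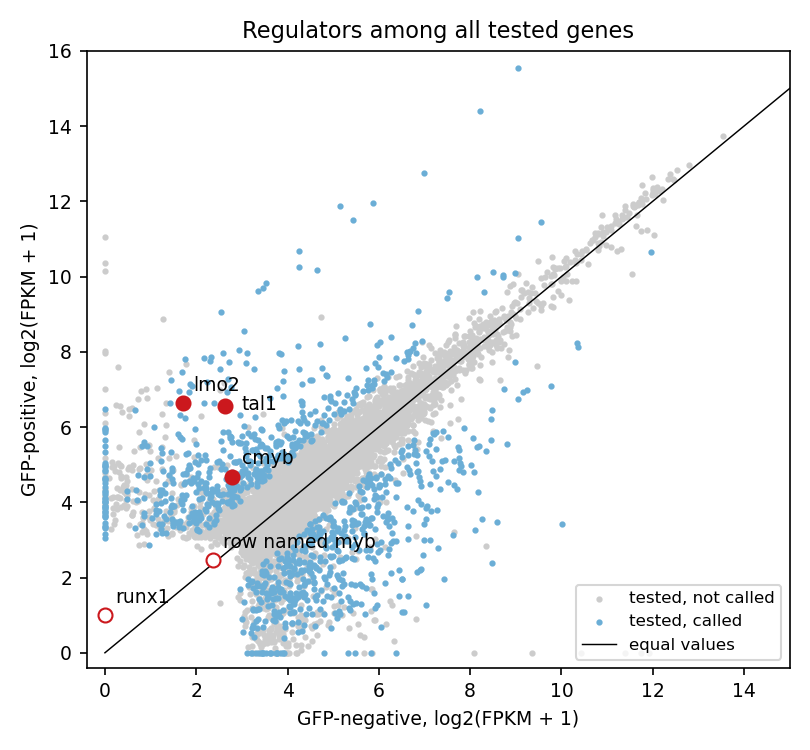
Each point is a tested gene, with its GFP-negative level on the horizontal and its GFP-positive level on the vertical axis, both as log2(FPKM + 1). The genes lmo2, tal1 and cmyb (filled red) lie above the line of equal values, while the row named myb and runx1 (open circles, not tested) lie below the range of nearly all tested genes.

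What remained of each regulator in GFP-negative cells differed. The GFP-negative level was 2.32% of the GFP-positive level for lmo2, 5.57% for tal1 and 23.8% for cmyb. Among 8 endothelial marker genes this share ran from 0.365% to 4.07% with a median of 1.97%, and among 15 erythroid rows from 0.515% to 3.14% with a median of 1.5%. The share of lmo2 lay inside both ranges, and those of tal1 and cmyb lay above all 23 of these values. In lists described below, 4 of 9 other vessel and blood regulators had a larger share than tal1. So did 7 of 18 blood progenitor rows above 0 in GFP-positive cells, and 2 of 11 myeloid rows. For cmyb these counts were 2, 5 and 1, in the same order. The blood progenitor and myeloid lists share spi1b, coro1a and lcp1. In sorted pools, fewer cells that express a gene and less RNA per cell cannot be told apart.

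Markers of other cells in which a regulator is known to be used had the larger sum in the GFP-negative fraction, though not every marker did. For tal1, these cells are ventral spinal interneurons and Kolmer-Agduhr cells, whose 10 marker genes summed to 8.50 against 59.9 FPKM. The transcription factor gene lhx5 had 0.128 against 14.5 FPKM, the GABA enzyme gene gad2 was listed at 0 against 7.89 FPKM, and gata3 stood at 6.10 against 6.04 FPKM. In the GFP-positive fraction 3 of the 10 were listed at 0, in the GFP-negative fraction 0 were, and 1 of the 10 was tested and not called. For runx1, the 10 markers of Rohon-Beard sensory neurons summed to 9.35 against 28.6 FPKM, with 1 tested and called lower (fgf13a, 1.20 against 8.43 FPKM). Listed at 0 were 3 of them with GFP and 2 without it, p2rx3a and p2rx3b in both. The isl2a row, at 5.78 against 6.38 FPKM, and isl1, at 1.34 against 6.99 FPKM, had no test. The 10 endoderm rows, a tissue that uses hhex, summed to 12.0 against 37.9 FPKM, with prox1a (1.88 against 19.6 FPKM) called lower and the only one tested. Of these 10 rows 4 were larger with GFP than without it, all untested: gata6 (2.41 against 1.55 FPKM), hnf4a (0.914 against 0.180 FPKM), and sox17 and pdx1 (0.469 and 0.458 FPKM, each against a listed 0). With ttr, which was listed at 0 in both fractions, 3 of the 10 were at 0 in GFP-negative cells. The markers p2rx3a, p2rx3b, gata6, hnf4a, sox17, pdx1 and ttr were named after their values were seen. With GFP, fgf13a and prox1a had under 2 FPKM, a level at which rows were not tested. Their tests thus rested on their GFP-negative levels. The part of spinal interneurons and Kolmer-Agduhr cells in the GFP-negative level of tal1 was not tested. No GFP-negative value above 0 was at hand for runx1, listed at 0, or for hhex, not analysed here.

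Markers of vessel and of blood cells were both called higher in GFP-positive cells. Of 8 endothelial genes 5 were called higher, and of 15 erythroid rows 13, where 7.18% of all tested genes were. Without GFP the endothelial genes had 0.120 to 7.50 FPKM and the myeloid rows (below) at most 1.11 FPKM. Few rows at such levels are tested, so these tests rested on GFP-positive levels, and calls lower were hardly possible. The same holds for erythroid rows such as alas2 (1.67 FPKM without GFP), but not for the globin rows, all above 10 FPKM without GFP. The summed level was 569 against 13.7 FPKM for the endothelial genes and 87028 against 1108 FPKM for the erythroid rows. The myeloid rows, 11 in all with 6 tested and 3 called higher, summed to 439 against 3.35 FPKM. In the endothelial group egfl7 had 206 against 7.50 FPKM, and in the myeloid group mpx had 63.6 against 1.11 FPKM, both called higher. The larger myeloid rows lyz (192 against 0.227 FPKM) and coro1a (67.0 against 0.799 FPKM) were tested and not called. The contribution of each cell type to the levels of lmo2, tal1 and cmyb was not tested.

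Genes for proteins that assemble with TAL1 and LMO2 held some called higher and others not called. Of 16 symbols in this list 13 were matched and 9 tested, with 3 called higher, 0 lower and 6 not called; by Cuffdiff's unadjusted p under 0.05, 1 was lower (ssbp4). The share called higher was 33.3%, beside 7.18% of all tested genes, with no test of that difference. The median log2((FPKM + 1) ratio) over the 9 tested was -0.10. The genes called higher were the GATA factor genes gata1a and gata2a, which bind beside TAL1, and the corepressor gene runx1t1. The erythroid factor gata1a had 134 against 2.73 FPKM (49.2-fold in the authors' deposited table, q 0.00374). For gata2a, used in progenitors, the values were 35.4 against 10.5 FPKM (3.37-fold, q 0.0124 in the same deposited table of the authors). The ETO-family gene runx1t1 had 14.5 against 4.53 FPKM (3.20-fold, q 0.0158 in the authors' deposited table). Without GFP, gata1a and runx1t1 had under 5 FPKM, a level at which almost no rows are tested. Their tests thus rested on their GFP-positive levels, and calls lower were hardly possible. The same does not hold for gata2a.

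Bridging and pairing partners had values on both sides, and none was called. The LIM-binding adaptor gene ldb1a, whose protein links LMO2-bound complexes, had 43.2 against 62.5 FPKM (q 0.462 in the authors' deposited table). The E protein gene tcf12 had 55.8 against 75.4 FPKM (q 0.628 in the authors' deposited table). The LDB1-binding protein genes ssbp3b and ssbp4 had 51.2 against 66.5 FPKM and 28.4 against 50.6 FPKM, with q of 0.647 and 0.160 in the authors' deposited table. A further LDB1-binding protein gene, ssbp3a (named after its values were seen), was larger with GFP than without it, 14.8 against 7.90 FPKM, with a q of 0.247 by the authors' deposited table.

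Among binding partners and cofactors of RUNX1, MYB, TAL1 and HHEX, 11 of 15 symbols were matched and 9 tested. Cuffdiff called 1 higher, cbfb, 0 lower and 8 not, with 2 lower by unadjusted p under 0.05, and the median log2((FPKM + 1) ratio) over the tested genes was -0.23. The share called was 11.1%, near that of all tested genes (7.18% higher, 14.3% in either direction). The gene cbfb (ENSDARG00000040917, chr18:22774823-22853376), which encodes the non-DNA-binding partner that RUNX proteins need, stood at 36.8 against 5.72 FPKM. The difference was 6.44-fold in the authors' deposited table, with q at 0.000958. Against this, the 4 rows named runx1, runx2a, runx2b and runx3 summed to 2.67 against 0.350 FPKM, and none of them was tested. Histone-modifying corepressor genes were not called. The deacetylase gene hdac1 had 189 against 257 FPKM and the demethylase gene kdm1a 39.3 against 79.7 FPKM (q 0.563 and 0.0773 in the authors' deposited table). The KDM1A partner gene rcor1 had 25.2 against 20.9 FPKM, and mybbp1a, for a MYB-binding protein, 21.7 against 19.6 FPKM.

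Relatives of the regulators went both ways. Of 13 symbols 10 were matched and 4 tested, with 1 called higher, 2 lower and 1 not called. The share called in either direction was 75.0% of these 4, beside 14.3% of all tested genes, with no test of that difference. The LIM-only gene lmo4a was called higher at 80.1 against 31.3 FPKM (2.56-fold, q 0.0181 in the authors' deposited table). Its relative lmo3 was called lower at 1.25 against 25.3 FPKM (q 0.0207 in the authors' deposited table), and lmo4b had 14.6 against 15.5 FPKM and was not called. The neuronal helix-loop-helix gene nhlh2, from the same broad family as tal1, was called lower at 1.47 against 48.0 FPKM (q 0.0263 in the authors' deposited table). With GFP, lmo3 and nhlh2 had under 2 FPKM, a level at which 0 of 4276 rows (0.5 to 2 FPKM) were tested. Their tests thus rested on their GFP-negative levels, and calls higher were hardly possible. The closest zebrafish relative of tal1 in this list, tal2, used in midbrain and spinal neurons, was listed at 0 against 2.20 FPKM, with no test. The rows lmo1 and mybl1 had 2.12 against 5.55 FPKM and 1.77 against 2.74 FPKM, also with no test.

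Shares within the LIM-only and MYB families can be set side by side, since FPKM is scaled by length. The gene lmo2 made up 49.9% of the summed FPKM of 5 LIM-only genes (lmo1, lmo2, lmo3, lmo4a and lmo4b) in GFP-positive cells and 2.85% in GFP-negative cells. The gene lmo4a made up 40.9% and 39.1%. The cmyb row made up 79.6% of the summed FPKM of 3 MYB-family rows (cmyb, mybl1 and the row named myb) with GFP and 46.0% without it. The row named myb shares its locus with another gene, and mybl2b, not matched by name, is left out of this sum. These shares are descriptions with no test.

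**Figure D4:**
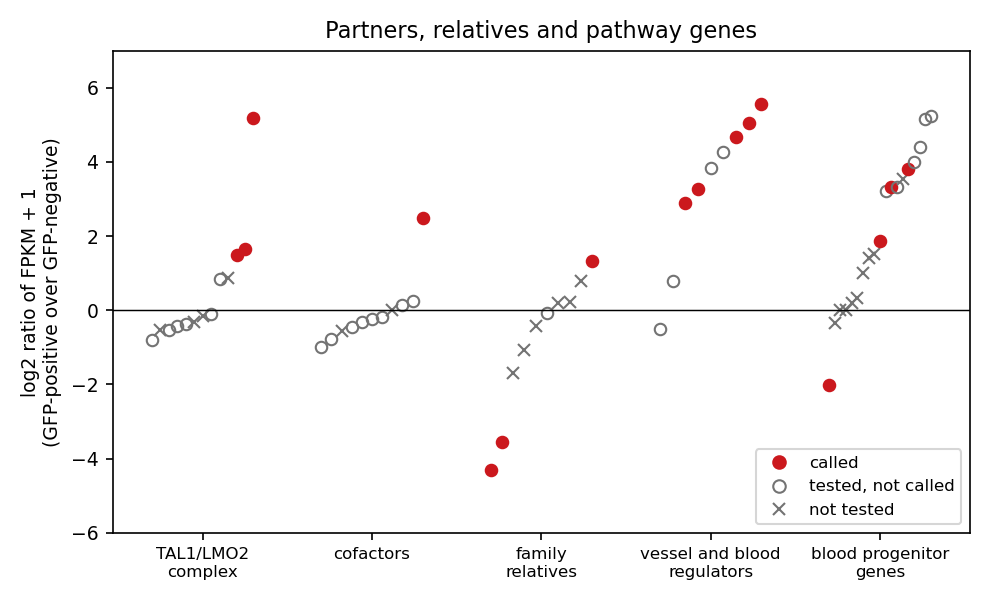
Each point is a gene, placed by its log2 ratio of FPKM + 1 (GFP-positive over GFP-negative), in 5 lists of pathway genes, with filled circles for called genes, open circles for tested genes not called and crosses for genes with no test. In the first 2 lists, 4 of 18 tested genes were called, all higher, and most others lie near 0.

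Among other regulators of vessel and blood progenitors, 9 of 10 symbols were matched and all 9 tested. Cuffdiff called 5 higher and 0 lower, with 0 lower by unadjusted p under 0.05, and 4 were not called, with a median log2((FPKM + 1) ratio) of 3.84. The share called higher was 55.6%, beside 7.18% of all tested genes, and this difference was not tested. The 5 include fli1a, whose regulatory sequence drives the GFP that was sorted on. Without GFP, etv2, fli1a, fli1b, klf2a, erg and sox18 had under 5 FPKM, a level at which almost no rows are tested. Their tests thus rested on their GFP-positive levels, and calls lower were hardly possible. The ETS gene etv2, which acts upstream of tal1 and lmo2, had 232 against 3.97 FPKM, and fli1b had 44.2 against 0.769 FPKM. The gene fli1a, whose regulatory sequence the sort used, had 187 against 4.71 FPKM, so its difference describes the sort. The SoxF gene sox7 had 57.5 against 5.03 FPKM and the flow-responsive gene klf2a 33.6 against 3.66 FPKM. Not called were erg (28.2 against 0.504 FPKM), sox18 (27.7 against 1.01 FPKM), the arterial gene hey2 (29.3 against 16.6 FPKM) and the venous gene nr2f2 (65.2 against 93.7 FPKM).

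A list of blood stem and progenitor genes, several of them regulated by the members, held large ratios that were not called. Its genes spi1b, coro1a and lcp1 are also in the myeloid marker list, so these lists overlap and are not separate evidence. Of 18 symbols 17 were matched, in 19 rows, and 10 rows were tested, with 3 called higher, 1 lower and 6 not called. Among all tested genes 7.18% were called higher and 7.15% lower, and the difference from this list was not tested. Over the 10 tested rows the median log2((FPKM + 1) ratio) was 3.56, beside 0.05 over all tested genes. Over all 19 rows, the untested ones included, it was 1.88, beside 0 over all 31716 rows. The repressor gene gfi1b, which acts in early red cells, had 18.6 against 0.397 FPKM, the myeloid factor gene cebpa 25.4 against 1.66 FPKM and the kinase gene jak2a 42.2 against 10.8 FPKM, all called higher. The homeobox gene meis1, used in blood progenitors and widely in neural and other tissue, was called lower at 27.0 against 113 FPKM. The 6 tested rows not called each had over 10 times the GFP-negative value in GFP-positive cells, and they include spi1b (43.0 against 0.232 FPKM), coro1a (67.0 against 0.799 FPKM) and ikzf1 (29.7 against 0.440 FPKM). The tested epor row had 21.0 against 0.369 FPKM. Without GFP, gfi1b, cebpa and the 6 rows not called had under 2 FPKM. Rows with a higher value of 0.5 to 2 FPKM were tested in 0 of 4276 cases. The tests of these genes thus rested on their GFP-positive levels, and calls lower were hardly possible. The median over the tested rows is raised by this.

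Calls among ratios this large are set out here by the GFP-negative value, as a description with no test. Of 110 tested genes with at least 10 times the value in GFP-positive cells and a GFP-negative value above 0 but under 1 FPKM, 18 were called, which is 16.4%. Of 128 such genes with at least 1 FPKM in GFP-negative cells, 96 were called, which is 75.0%. Tested genes listed at 0 in GFP-negative cells are in neither set, and some of them were called. Both lmo2 and tal1 belong to the second set. The platelet and stem cell integrin gene itga2b, named after its values were seen, was listed at 0 in both fractions, and gfi1aa, known to act downstream of runx1, had 2.58 against 0.354 FPKM with no test.

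Genes most like each regulator were sought by distance over log2(FPKM + 1) in the 2 fractions, among tested genes. Nearest to lmo2 were the heme synthesis gene alas2 (98.1 against 1.67 FPKM) and the endothelial adaptor gene she (78.4 against 2.15 FPKM). For tal1 they were cpox, another heme synthesis gene (98.4 against 4.27 FPKM), and mcamb, an adhesion gene (120 against 5.36 FPKM). TBC1D4 and ankhb were nearest to cmyb, at 25.4 against 5.90 FPKM and 25.4 against 5.95 FPKM. Likeness over 2 values is loose, and for runx1 the nearest tested gene lay 2.01 log2 units away, so no like gene is given for it. Nearest to the row named myb were TCF24 (6.11 against 4.0 FPKM) and map2k4b (5.81 against 3.29 FPKM).

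Of the genes next to the regulators on the chromosome, the 5 with a test were not called. On either side of lmo2 lie caprin1b, 17.6 kb away, with 36.8 against 41.5 FPKM, and alx4b, 22.4 kb away, with 6.24 against 0.533 FPKM and no test. The neighbours of tal1 are ier5, 36.4 kb away, with 307 against 337 FPKM, and pdzk1ip1l, 10.6 kb away, with 0.552 against 0.231 FPKM and no test. Beside cmyb, hbs1l at 5.19 kb had 20.3 against 16.3 FPKM and zgc:153910 at 71.3 kb had 29.0 against 15.5 FPKM. The gene gart, 47.5 kb before runx1, had 8.64 against 8.25 FPKM. The row named myb is flanked by sgk2a (6.84 against 0.765 FPKM) and PTPDC1 (2 of 3) (1.08 against 0.451 FPKM), both with no test. Of the 9 neighbouring rows outside the RUNX1 rows, 5 were tested, and Cuffdiff called 0 at a q under 0.05 and 0 by unadjusted p under 0.05. Among all tested genes 14.3% were called in either direction, so 0 of 5 does not set these neighbours apart.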

How the data were processed

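The deposited table compares 2 GFP-positive with 2 GFP-negative libraries of total RNA, isolated from fixed, sorted cells per the labels' protocols. Reads were aligned and compared with TopHat2 (2.0.9) and Cuffdiff (2.1.1) on Zv9, per the submitters' processing notes, with settings not given in the sources used here. Per the file headers, the authors deposited 1 FPKM value per gene and fraction, a log2 ratio (GFP-negative over GFP-positive, sign turned here), a test statistic (a score), a p-value and a q-value. The deposited FPKM was taken as the value over both libraries. Values per library were not used here, depth is unknown, and locus coordinates are as the file gives them. The deposited q was the Benjamini-Hochberg adjustment over 7299 tested genes within 5.3e-07. A gene was called at a deposited q under 0.05, and log2 ratios use a pseudocount of 1 FPKM, which understates low genes. Of the code (Python 3.11.15, pandas 2.3.3), only the Benjamini-Hochberg step was tested on simulated data. The members and lists were chosen with earlier results of these data known. Named are all members, called genes of the 5 pathway lists, up to 4 uncalled ones of largest mean FPKM, 2 nearest genes per member, chromosomal neighbours and, from the 3 largest of each of 7 marker lists, some. Symbols were matched to the table's names. Alternatives were another q, a minimum ratio, minimum FPKM, genes alone in their locus, pseudocounts, centring and matching by ID.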

Additional observations from a re-analysis of the deposited data

How the results depend on the processing

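The calls of tal1, lmo2 and cmyb held at a q of 0.01 and among genes alone in their locus. A minimum absolute log2 ratio of 1 and minimum values of 1 and 5 FPKM each kept all 1046 calls. Those settings therefore put none of the calls to a test. The stricter q of 0.01 left 630 of the 1046 calls in the authors' deposited table. There, 9 instead of 16 genes over the 5 pathway lists were called, with 1 instead of 3 in the TAL1 and LMO2 complex list and 0 instead of 3 among family relatives. By Cuffdiff 3 of those 4 tested relatives had an unadjusted p under 0.05, and no other tool was run. The median log2((FPKM + pseudocount) ratio) over the 4 rows matched by name was 3.80 with a pseudocount of 0.1 and 4.79 with 0.01, against 2.46 with 1, since runx1 was listed at 0. Centred on the median of genes with 1 FPKM or more in both fractions, it was 2.45. Matching by gene ID was chosen after seeing the data. No paired analysis was possible because the table gives 1 value per fraction, and for the same reason no replicate was left out. Unknown depth and the level needed for a test limit what can be said of runx1.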
